A study of Mus musculus with 39 samples.

Results

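A set of 10 genes of the neuroectoderm and of neural progenitors was followed through the mouse epiblast between E5.5 and E7.5 and in epiblast stem cell (EpiSC) lines, in *Stat3* null and WT samples. They comprise the SOX factors *Sox1*, *Sox3* and *Sox21*, the patterning factors *Pax6*, *Lmx1b*, *Irx5* and *Six3*, and the progenitor genes *Ncam1*, *Nes* and *Msi1*. They were taken by symbol out of 47643 genes in each of 2 count tables, and each symbol matched 1 row per table. The set was chosen by measured values, since differences between null and WT epiblasts in these same libraries were already known when it was drawn up. Null against WT differences in the epiblast, the comparison of E6.5 null with E5.5 WT and the stage step compared between genotypes are therefore given as a description without a test. Counts of called genes in these comparisons stand beside the share of all genes called, and nothing is read from them. Tests are given for the stage steps within a genotype, for E7.5 null against E6.5 WT and for the EpiSC lines. The stage steps and E7.5 null against E6.5 WT share libraries with the described comparisons, so they are not independent of how the genes were chosen.

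All embryos came from inter-crosses of *Stat3* heterozygous mice on the CD1 background. In the null allele a neomycin resistance gene replaces part of *Stat3*, in every cell of the embryo. Each epiblast library was the RNA of 1 epiblast, dissected away from the extraembryonic ectoderm and visceral endoderm, with the genotype read from the extraembryonic tissue. WT epiblasts numbered 2 at E5.5, 9 at E6.5 and 9 at E7.5, and null epiblasts 4, 8 and 3 at these stages. EpiSCs are self-renewing lines from E6.5 or E7.5 epiblasts, cultured with FGF2, Activin A and the tankyrase inhibitor XAV-939. The 2 null lines (labelled 2 and 6) and the 2 WT lines (8 and 13) gave 1 library each.

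The neuroectoderm forms from the part of the epiblast that does not enter the primitive streak. SOX factors of the SOXB1 group keep ectodermal cells in a progenitor state, and homeobox and paired-box factors then divide the neural plate into regions. *Nes* and *Msi1* are widely used as markers of neural stem and progenitor cells, and *Ncam1* marks neural tissue from the neural plate onward.

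Levels are CPM, the count of a gene per 1000000 counts of its library, and levels of different genes are compared only per kilobase of merged exons. A gene was called where the absolute log2 fold change was over 1 with an adjusted p under 0.05 over all genes tested, by the quasi-likelihood test of edgeR after Benjamini-Hochberg adjustment.

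The stretch before the start site is shown for some of the genes that were called between stages and had a RefSeq promoter. *Irx5*, *Ncam1* and *Msi1* were also called between stages but had none. *Sox21*, *Lmx1b* and *Six3* were higher in WT epiblasts at E7.5 than at E6.5, and *Nes* was higher at E6.5 than at E5.5. Sequences are RefSeq promoters on GRCm38.p6, written 5′ to 3′ on the strand of the gene. They end before the RefSeq start, or before the first base that lies in an exon of the gene in GENCODE M21. The *Six3* stretch lies before a RefSeq start inside the gene, which in GENCODE M21 begins upstream, at chr17:85613608. Capitals mark CpG. The stretches are chr14:118237031-118237280 (minus strand) for *Sox21*, chr2:33641099-33641348 (minus strand) for *Lmx1b*, chr17:85620584-85620833 (plus strand) for *Six3* and chr3:87970843-87971077 (plus strand) for *Nes*.
Sox21: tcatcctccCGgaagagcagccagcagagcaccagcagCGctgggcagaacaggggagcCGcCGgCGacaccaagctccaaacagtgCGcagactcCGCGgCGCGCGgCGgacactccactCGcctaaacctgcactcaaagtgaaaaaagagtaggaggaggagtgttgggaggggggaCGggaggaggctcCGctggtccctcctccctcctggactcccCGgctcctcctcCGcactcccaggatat
Lmx1b: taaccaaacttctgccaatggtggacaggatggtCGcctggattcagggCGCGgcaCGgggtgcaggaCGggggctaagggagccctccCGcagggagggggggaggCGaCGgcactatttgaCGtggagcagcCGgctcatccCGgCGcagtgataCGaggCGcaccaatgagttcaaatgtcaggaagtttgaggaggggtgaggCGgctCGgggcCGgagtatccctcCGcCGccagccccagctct
Six3: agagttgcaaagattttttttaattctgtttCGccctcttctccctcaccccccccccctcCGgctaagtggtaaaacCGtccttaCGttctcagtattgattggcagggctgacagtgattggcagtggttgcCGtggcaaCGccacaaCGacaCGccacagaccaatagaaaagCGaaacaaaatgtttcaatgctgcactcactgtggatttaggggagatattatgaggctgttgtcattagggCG
Nes: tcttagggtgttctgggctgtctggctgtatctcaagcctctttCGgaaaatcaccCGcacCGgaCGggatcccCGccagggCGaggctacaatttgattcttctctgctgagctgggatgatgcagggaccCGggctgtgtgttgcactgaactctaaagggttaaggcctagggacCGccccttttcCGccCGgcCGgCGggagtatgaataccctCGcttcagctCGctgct

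RefSeq promoters were found for 6 of the 10 genes, in 7 windows of 300 bases that run from 250 bases before to 50 after a start site. The windows held 14 to 37 CpG, against a median of 7 over 32851 promoters. The *Sox1* window held 37, more than 94.4% of all windows. TTCNNNGAA, the palindrome bound by STAT dimers, was in 0 of the 7 windows on either strand and in 8.3% of all windows. CATTGT, a core of SOX sites, was in 0 of the 7 and in 12.6% of all. The octamer of POU factors, ATTTGCAT, was in 1 of the 7, that of *Sox1*, and in 1.74% of all. No window held more than 1 of these motifs, and a missing match says only that these letters are not in the window.

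Total counts were 22941210 to 79013960 in the epiblast libraries and 63445877 to 127583699 in the EpiSC libraries. At E6.5, libraries 1 to 3 of each genotype had over 40000000 counts but only 15171 to 19380 genes detected. The other E6.5 libraries were under 40000000, with 20338 to 22310 genes. *Sox1*, *Ncam1*, *Six3* and *Lmx1b* were at 0 at E6.5 only in the deeper libraries, *Irx5*, *Sox21* and *Pax6* in others too. The part of this split in the 0 counts was not tested. *Stat3* was 39.3 and 49.4 CPM in E5.5 WT against 9.21 to 22.6 in E5.5 null, and 4.80 to 25.3 in E7.5 WT against 1.22 to 1.48 in E7.5 null. At E6.5 the ranges overlapped, with 5.84 to 27.2 CPM in WT and 1.41 to 7.59 in null. *Pou5f1*, which marks the epiblast, was 0.654 CPM in E5.5 null 1, against its label, and 101 to 722 CPM in the other epiblast libraries. Beside E5.5 null 1, 3 libraries stood apart. E6.5 null 1 carried the highest sum of 12 extraembryonic ectoderm markers after the E5.5 null 1 library (1596 CPM). E6.5 WT 3 carried the highest sum of 14 visceral endoderm markers among E6.5 WT (5873 CPM). E7.5 WT 3 had the highest sum of 8 epiblast markers (5843 CPM) and the lowest of 10 primitive streak and mesoderm markers (26.1 CPM) among E7.5 WT. Counts of called genes that change without these libraries are given with and without them. E6.5 null 3 had the highest visceral endoderm sum at E6.5 (7197 CPM) and the fewest genes detected (15171), and leaving it out beside these 4 gave the same number of called genes among the 10 as leaving out the 4, in every epiblast comparison. This was added after the data were seen. In bulk RNA, fewer cells of a type and less RNA per cell cannot be told apart.

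**Figure D1:**
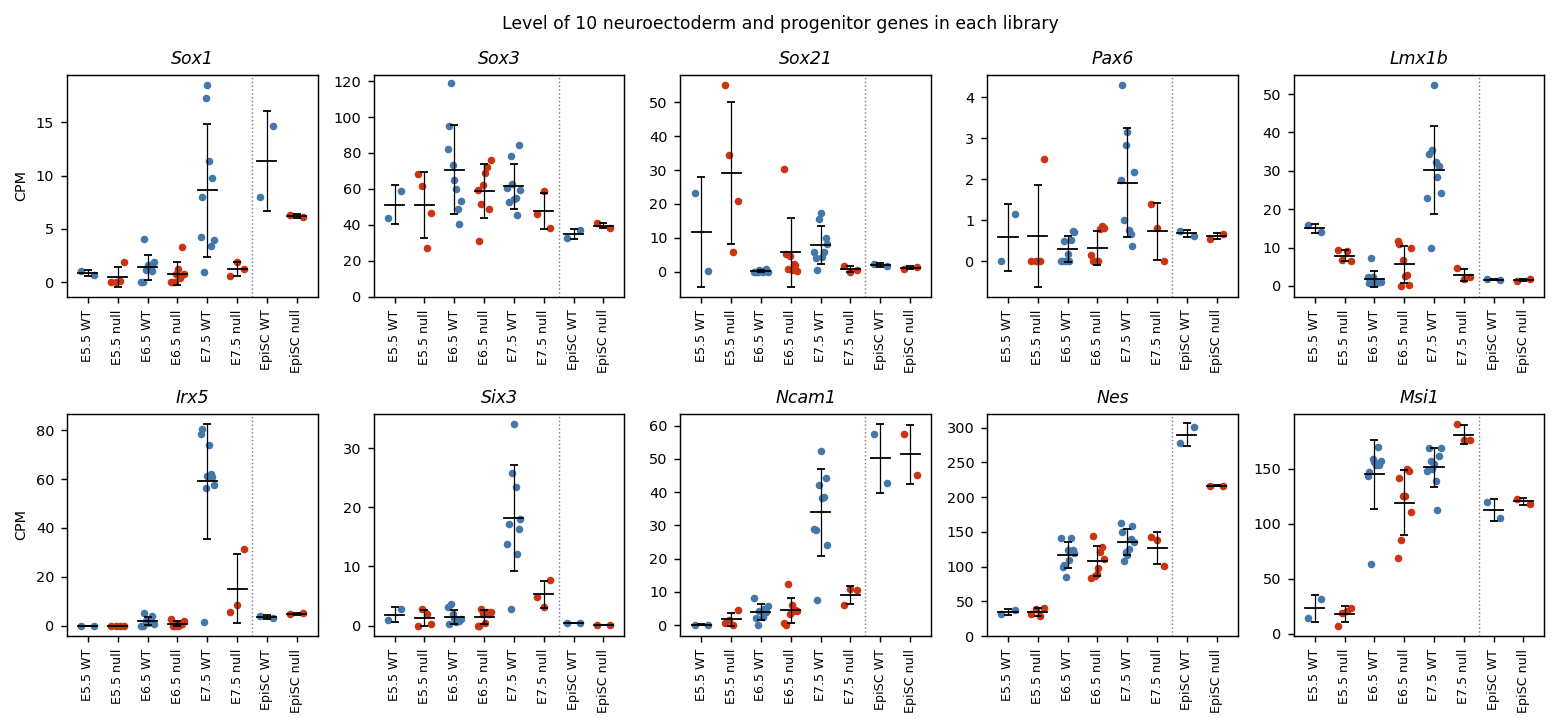
CPM (vertical axis, from 0) of each of the 10 genes in each library, by stage and genotype, with WT in blue and null in red. Points are libraries, black lines the mean and bars the SD, and EpiSC libraries right of the dotted line come from a separate table. Most E7.5 WT libraries stood above E6.5 WT for *Sox1*, *Sox21*, *Lmx1b*, *Irx5*, *Six3* and *Ncam1*, while *Nes* and *Msi1* were already high at E6.5.

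The question of the stage comparisons is when these genes are switched on in the epiblast. In WT epiblasts 7 of the 10 genes rose between E6.5 and E7.5, namely *Sox1*, *Sox21*, *Pax6*, *Lmx1b*, *Irx5*, *Six3* and *Ncam1*, and none fell. Of all 17191 genes tested, 8.83% were called. The median log2 fold change was 2.83 over the 10 genes and 0.01 over all genes tested. These WT libraries also entered the null against WT differences known when the 10 genes were chosen. The share and the median are therefore not independent of that choice. *Nes* and *Msi1* had risen a day earlier, and *Sox3* passed the test at neither step. Markers of several tissues moved over the same step. Of 8 epiblast markers 6 fell and none rose, 5 of the 9 primitive streak and mesoderm markers tested rose, and so did 4 of 14 visceral endoderm and 4 of 10 extraembryonic ectoderm markers. Their part in the 7 rises was not tested.

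*Sox1* (ENSMUSG00000096014.1, chr8:12395295-12400126, 1 exon) is among the earliest markers of the neural plate. In WT it was 0.668 and 1.05 CPM at E5.5. At E6.5 it ran from 0 over a median of 1.24 to 4.03 CPM, and at E7.5 from 0.937 over 7.99 to 18.5 CPM. The groups overlapped, and the lowest E7.5 WT value was that of E7.5 WT 3. The rise from E6.5 to E7.5 was 2.55 on the log2 scale (SE 0.73, adjusted p = 0.0143, edgeR). In null epiblasts *Sox1* was 0.568, 1.22 and 1.86 CPM at E7.5, within the range of E6.5 null (0 to 3.33 CPM).

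*Sox3* (ENSMUSG00000045179.9, chrX:60891366-60893430, 1 exon), the SOXB1 gene on the X chromosome, was well expressed throughout. Group means were 51.2 ± 10.8 CPM (SD, n = 2) in E5.5 WT, 70.7 ± 24.8 (n = 9) in E6.5 WT and 61.4 ± 12.4 (n = 9) in E7.5 WT. In null epiblasts they were 50.9 ± 18.3 (n = 4), 58.8 ± 14.8 (n = 8) and 47.7 ± 10.3 (n = 3). All these ranges overlapped. The log2 fold change from E6.5 to E7.5 in WT was -0.30 (SE 0.19, adjusted p = 0.266, edgeR). Extraembryonic ectoderm also expresses *Sox3*. E5.5 null 1, 2, 3 and 4 held 68.2, 61.9, 27.0 and 46.7 CPM, at sums of 2638, 1045, 233 and 942 CPM of its markers. E5.5 WT 1 and 2 held 43.6 and 58.8 CPM at sums of 846 and 170. The part of this tissue in the level of *Sox3* was not tested.

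*Sox21* (ENSMUSG00000061517.8, chr14:118233232-118237030, 1 exon) encodes a SOXB2 factor that promotes the exit from the progenitor state. In the E5.5 WT pair it was 23.2 and 0.281 CPM. At E6.5 WT it was at 0 in 5 of 9 libraries and at most 0.605 CPM, and at E7.5 WT it ran from 0.481 over 5.83 to 17.3 CPM. The rise between E6.5 and E7.5 was 5.59 (log2, SE 0.97, adjusted p = 3.46e-04, edgeR), and E7.5 WT 3 was again the lowest library. From E5.5 to E6.5 in WT it fell by 6.21 on the log2 scale (SE 1.57, adjusted p = 0.0281, edgeR), a change that rests on E5.5 WT 1. Without that library the log2 fold change was -0.80 (adjusted p = 0.961, edgeR, the remaining E5.5 WT library being assumed to vary like the others). The call was also lost without E6.5 WT 5 (adjusted p = 0.0526, edgeR) or E6.5 WT 7 (0.0533).

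The highest levels of *Sox21* came with high extraembryonic ectoderm markers. The sum of the 12 markers, all 12 detected in each epiblast group, was 846 CPM in E5.5 WT 1 and 170 in E5.5 WT 2. The library highest in *Sox21*, E5.5 null 1 (55.3 CPM), had the highest sum (2638 CPM), and *Elf5*, a defining marker, was 273 CPM in it. The other E5.5 null libraries held 34.5, 5.69 and 20.8 CPM of *Sox21* at sums of 1045, 233 and 942 CPM. At E6.5 the highest sum, 1596 CPM, was that of E6.5 null 1 with 30.4 CPM of *Sox21*, while E6.5 WT 3, the highest of its group at 133 CPM, had 0 counts of *Sox21*. In E7.5 WT the sum was 56.9 to 412 CPM, but *Elf5* was at 0 in 7 of 9 libraries and at most 0.498 CPM. Of the 12 markers, *Cdx2*, *Gata3*, *Hand1* and *Bmp4* are also expressed by embryonic or extraembryonic mesoderm and ectoderm at this stage. The part of extraembryonic ectoderm in the E5.5 and E6.5 levels of *Sox21* was not tested.

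**Figure D2:**
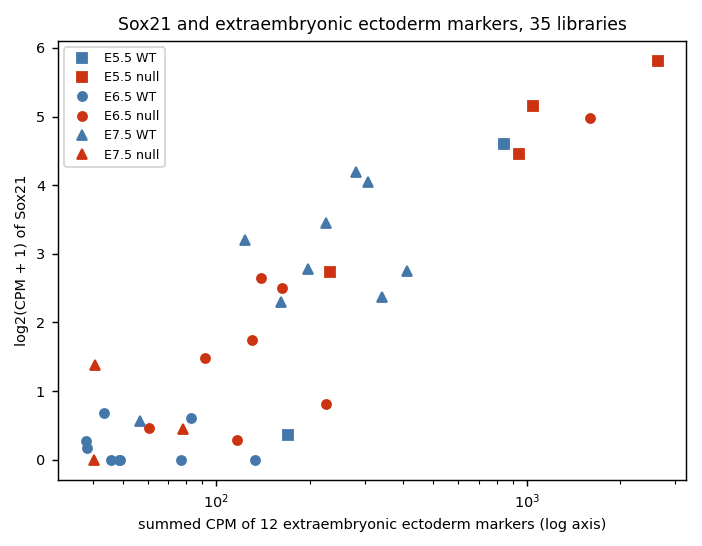
Level of *Sox21* as log2(CPM + 1) against the summed CPM of 12 extraembryonic ectoderm markers (log axis) in the 35 epiblast libraries, with squares for E5.5, circles for E6.5, triangles for E7.5, blue for WT and red for null. The highest *Sox21* values at E5.5 and E6.5 (55.3 CPM in E5.5 null 1 and 30.4 CPM in E6.5 null 1) lie at the highest marker sums, 2638 and 1596 CPM.

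*Pax6* (ENSMUSG00000027168.21, chr2:105668900-105697364) encodes a paired-box factor of the eye and forebrain. It was the lowest of the 10 genes per kilobase in E6.5 and E7.5 epiblasts, with a mean of 0.164 CPM per kb in E7.5 WT. In WT it was 0 to 0.727 CPM at E6.5, with 4 of 9 libraries at 0, and 0.363 to 4.30 CPM at E7.5 with a median of 1.98. The rise was 2.64 (log2, SE 0.95, adjusted p = 0.0456, edgeR). This call was lost when E6.5 WT 2, 4, 5, 6 or 7, or E7.5 WT 1, 2, 4, 5, 6 or 9, was left out, with an adjusted p between 0.0511 and 0.0875 (edgeR), and the log2 fold change then stayed between 2.40 and 2.78.

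*Lmx1b* (ENSMUSG00000038765.13, chr2:33560965-33640511) encodes a LIM homeobox factor of the mid-hindbrain boundary and dorsal neural tube. It was the only one of the 10 genes whose E6.5 and E7.5 WT libraries did not overlap, as was the case for 2.37% of all genes tested. It was 14.2 and 15.8 CPM in E5.5 WT, 0.694 over a median of 0.969 to 7.2 in E6.5 WT, and 9.93 over 31.1 to 52.5 in E7.5 WT. The E6.5 maximum was that of E6.5 WT 3 and the E7.5 minimum that of E7.5 WT 3. It thus fell by 2.94 on the log2 scale from E5.5 to E6.5 (SE 0.70, adjusted p = 0.0195, edgeR) and rose by 3.86 from E6.5 to E7.5 (SE 0.48, adjusted p = 2.43e-05, edgeR). The fall was not called without E5.5 WT 1 (adjusted p = 0.211, edgeR) or E5.5 WT 2 (0.0628), at a log2 fold change of -2.86 and -3.07. Summed visceral endoderm markers were 6083 and 7730 CPM in the E5.5 WT pair and had a median of 215 CPM in E6.5 WT, with 5873 in E6.5 WT 3. In null the E6.5 library with the highest sum, E6.5 null 3 (7197 CPM), had 0 counts of *Lmx1b*. The highest E6.5 null level of *Lmx1b*, 11.8 CPM in E6.5 null 1, came with a sum of 153 CPM. Extraembryonic ectoderm markers summed to 1596 CPM in E6.5 null 1, and to 2638 CPM in E5.5 null 1, the E5.5 null library highest in *Lmx1b* (9.32 CPM). In contrast, 14.2 CPM of *Lmx1b* in E5.5 WT 2 and 9.77 CPM in E6.5 null 8 came with sums of 170 and 117 CPM of these markers. The part of either tissue in the level of *Lmx1b* was not tested.

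*Irx5* (ENSMUSG00000031737.10, chr8:92357625-92376286) encodes an Iroquois homeobox factor. It had 0 counts in all 6 E5.5 libraries. In E6.5 WT it was 0 to 5.0 CPM with a median of 1.93, and in E7.5 WT 8 of 9 libraries held 56.2 to 80.5 CPM. The exception was E7.5 WT 3 with 1.42 CPM. The E6.5 WT mean of 1.87 CPM was at least 17.1-fold higher than E5.5 WT, taking 3 counts at the mean depth of that group (0.109 CPM) as the limit that 0 counts allow. This bound covers counting error only, and the step was not called (adjusted p = 0.110, edgeR). Of the 9 E6.5 WT libraries 2 were at 0, E6.5 WT 1 and 2, both among the deeper ones. The rise from E6.5 to E7.5 was 4.89 (log2, SE 0.85, adjusted p = 4.82e-04, edgeR).

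*Six3* (ENSMUSG00000038805.10, chr17:85613608-85629302) encodes a homeobox factor of the anterior neural plate. It was 0.940 and 2.74 CPM in E5.5 WT, 0.261 over 1.17 to 3.58 in E6.5 WT and 2.84 over 17.3 to 34.1 in E7.5 WT. Again the lowest E7.5 WT library was E7.5 WT 3, the only one within the E6.5 range. The rise was 3.47 (log2, SE 0.48, adjusted p = 4.72e-05, edgeR).

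*Ncam1* (ENSMUSG00000039542.15, chr9:49502136-49798925) encodes a cell adhesion molecule. In WT it was 0 and 0.176 CPM at E5.5, 0 over 4.16 to 8.14 at E6.5 and 7.57 over 38.1 to 52.4 at E7.5. E7.5 WT 3 was the lowest at that stage. The rise from E6.5 to E7.5 was 3.02 (log2, SE 0.55, adjusted p = 6.28e-04, edgeR). From E5.5 to E6.5 the log2 fold change was 5.48 (SE 1.81), with an adjusted p of 0.077 (edgeR), and 5.59 with an adjusted p of 0.00148 (edgeR) without E6.5 WT 3, where *Ncam1* was at 0.

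The counts of *Sox21*, *Six3* and *Ncam1* may include reads of antisense genes, since no strand setting is given for the counting. *Gm4675* shares 713 exon bases with *Sox21* on the opposite strand, *Six3os1* 106 and *Gm28528* 168 with *Six3*, and *Gm11149* 417 with *Ncam1*. In E7.5 WT their means were 0.625, 4.67, 0.159 and 0.125 CPM.

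*Nes* (ENSMUSG00000004891.16, chr3:87971078-87980451) encodes the intermediate filament protein nestin, and *Msi1* (ENSMUSG00000054256.11, chr5:115429599-115455698) an RNA-binding protein of neural stem cells. Both rose between E5.5 and E6.5 in both genotypes, when 5.15% of all genes tested were called in WT and 1.98% in null. *Nes* was 31.9 and 37.6 CPM in E5.5 WT and 85.3 over 120 to 142 in E6.5 WT. In null it was 28.8 to 40.8 at E5.5 and 83.4 over 104 to 144 at E6.5. *Msi1* was 14.8 and 31.7 CPM in E5.5 WT, 63.7 over 154 to 170 in E6.5 WT, 7.22 to 23.6 in E5.5 null and 69.1 over 126 to 150 in E6.5 null. For both genes no E6.5 library overlapped the E5.5 libraries of its genotype, as was the case for 16.6% of all genes tested in WT and 5.25% in null. Summed epiblast markers were 2497 and 4023 CPM in E5.5 WT and 943 to 2982 in E5.5 null. At E6.5 they were 4337 to 6944 CPM in WT and 3012 to 5935 in null. Visceral endoderm markers summed to 6083 and 7730 CPM in E5.5 WT, with a median of 215 in E6.5 WT. In null these were 43.8 to 12415 CPM at E5.5 and 153 to 7197 at E6.5. Extraembryonic ectoderm markers summed to 170 and 846 CPM in E5.5 WT and 233 to 2638 in E5.5 null. At E6.5 their sum was 38.1 to 133 CPM in WT and 60.5 to 1596 in null. E5.5 null 1 was the lowest of its group in *Msi1*, and E6.5 null 1 the lowest of its group in both genes. The part of these tissues in the 2 rises was not tested.

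The rise of *Nes* was 1.78 in WT (log2, SE 0.18, adjusted p = 4.50e-04, edgeR) and 1.60 in null (SE 0.18, adjusted p = 7.09e-04). That of *Msi1* was 2.68 in WT (SE 0.36, adjusted p = 0.00156, edgeR) and 2.72 in null (SE 0.31, adjusted p = 7.21e-04). Neither was called from E6.5 to E7.5 in WT. The log2 fold change was then 0.14 for *Nes* (SE 0.09, adjusted p = 0.311, edgeR) and -0.02 for *Msi1* (SE 0.12, adjusted p = 0.945). In all, 4 of the 10 genes were called from E5.5 to E6.5 in WT, these 2 higher and *Sox21* and *Lmx1b* lower, and 2 of 10 in null. With the 4 libraries that stand apart left out, 5 were called in WT, *Ncam1* being added, and 3 in null, *Sox21* being added. Of all genes tested, 9.9% were then called in WT and 4.36% in null. DESeq2 called 5 in WT, with *Irx5* and *Ncam1* higher and without *Sox21*, and 3 in null, with *Irx5* higher. Its share of all genes tested was 9.32% in WT and 5.62% in null. In null *Sox21* had a log2 fold change of -2.30 (SE 1.07, adjusted p = 0.278, edgeR) from E5.5 to E6.5. Without E6.5 null 1 it was -3.76 (adjusted p = 0.0154, edgeR).

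In null epiblasts the step from E6.5 to E7.5 gave no call among the 10 genes, with 2 at an unadjusted p under 0.05 and 0 called by DESeq2, while 0.103% of all genes tested were called. *Irx5* was 0 to 2.48 CPM in E6.5 null and 5.56, 8.29 and 31.4 in E7.5 null, a log2 fold change of 4.28 (SE 1.31, adjusted p = 0.325, edgeR). *Six3* was 0 to 2.79 CPM in E6.5 null and 3.15, 4.86 and 7.78 in E7.5 null (log2 fold change 1.86, SE 1.26, adjusted p = 0.838, edgeR). *Msi1* was 176, 176 and 191 CPM in E7.5 null (log2 fold change 0.60, SE 0.19, adjusted p = 0.344, edgeR). In these 3 genes all E7.5 null libraries stood above all E6.5 null libraries, as 5.9% of all genes tested did in either direction. *Ncam1* was 5.95, 10.5 and 10.9 CPM in E7.5 null, within the E6.5 null range of 0 to 12.2 CPM (log2 fold change 1.04, SE 1.0, adjusted p = 0.96, edgeR).

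**Figure D3:**
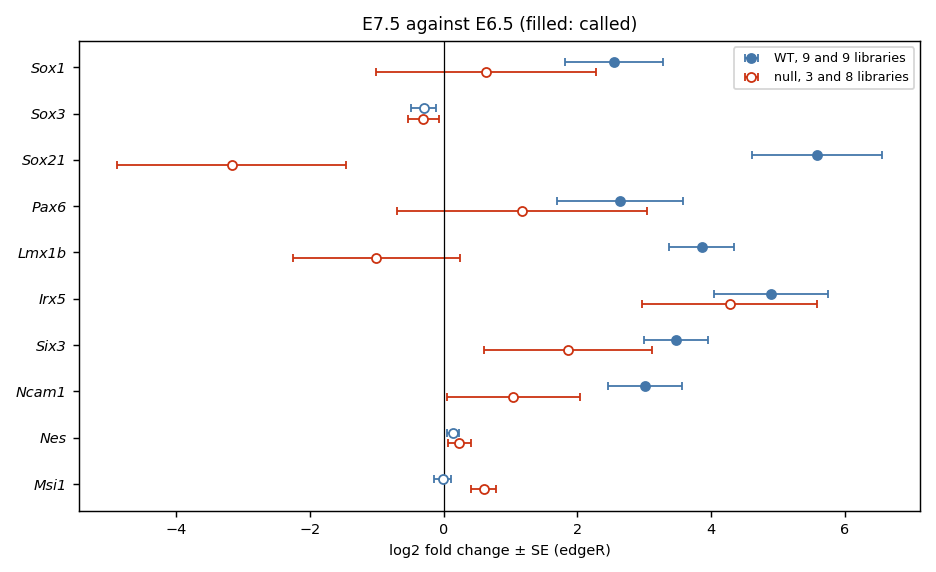
Log2 fold change from E6.5 to E7.5 (horizontal axis, edgeR estimate with SE bars) of the 10 genes in WT (blue, 9 against 9 libraries) and null epiblasts (red, 3 against 8). Filled points were called. All 7 filled points are WT, and the null estimate of *Irx5* (4.28) lies close to that of WT (4.89), whereas those of *Lmx1b* and *Sox21* lie below 0.

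The difference between the genotypes in this step is a description, because it contains the null against WT differences that were known. None of the 10 was called, against 0.443% of all genes tested. An unadjusted p under 0.05 was found for 3 of the 10 and for 3129 of all 22122. DESeq2 called 2 (*Lmx1b* and *Sox21*), and 2.69% of all genes tested. The step in null minus that in WT, on the log2 scale, was -4.89 for *Lmx1b* (SE 1.29), -8.76 for *Sox21* (SE 2.27) and -1.97 for *Ncam1* (SE 1.15). It was -1.91 for *Sox1* (SE 1.59), -1.62 for *Six3* (SE 1.16) and -0.65 for *Irx5* (SE 1.48). Without E6.5 WT 3, or without E7.5 WT 3, 2 of the 10 were called. The same number was called without the 4 libraries that stand apart, beside 3.99% of all genes tested.

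The comparison of genotypes asks how null epiblasts differ from WT of the same stage. At E7.5, the estimate was below 0 for 9 of the 10 genes and 1, *Lmx1b*, was called lower in null, while 1.17% of all genes tested were called. The median log2 fold change was -1.75 over the 10 genes and -0.02 over all genes tested. Since the 10 were chosen with such differences known, these values describe the set and are no test of it. *Lmx1b* was 4.54, 1.67 and 2.33 CPM in the null libraries, below all 9 WT libraries (9.93 to 52.5), with a log2 fold change of -3.31 (SE 0.45). The other estimates were -2.74 for *Sox1* (SE 0.80), -3.48 for *Sox21* (SE 1.16), -1.31 for *Pax6* (SE 1.01), -1.88 for *Irx5* (SE 0.89), -1.70 for *Six3* (SE 0.54) and -1.81 for *Ncam1* (SE 0.44). In each of these the ranges overlapped. For *Sox1*, *Sox21*, *Irx5*, *Six3* and *Ncam1* the overlap came from E7.5 WT 3 alone, and for *Pax6* from several WT libraries.

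For *Sox3* the estimate was -0.29 (SE 0.18), and for *Nes* -0.01 (SE 0.12). *Nes* was 142, 139 and 101 CPM in E7.5 null and 108 to 163 in E7.5 WT. *Msi1* was the exception with a higher level in null, 176 to 191 CPM against 112 to 169, without overlap and with a log2 fold change of 0.34 (SE 0.10). Groups did not overlap for 3.84% of all genes tested.

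The count at E7.5 changed with single libraries. Without E7.5 WT 3, 6 of the 10 were called (*Lmx1b*, *Sox1*, *Sox21*, *Irx5*, *Six3* and *Ncam1*), among 1105 genes or 5.68% of all tested. Without E7.5 null 2, or without E7.5 null 3, none was, and *Lmx1b* then had a log2 fold change of -3.04 and -3.18. The markers moved at the same time. The summed epiblast markers were 1110 to 5843 CPM in E7.5 WT and 4433 to 6075 in E7.5 null. The primitive streak and mesoderm markers summed to 26.1 to 620 CPM in WT, and to 110, 212 and 448 in null with *Msgn1* at 0. The visceral endoderm markers summed to 485 to 4760 CPM in WT and 84.2 to 377 in null. The extraembryonic ectoderm markers summed to 56.9 to 412 CPM in WT and 40.2 to 78.0 in null. The part of these tissues in the differences was not tested.

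**Figure D4:**
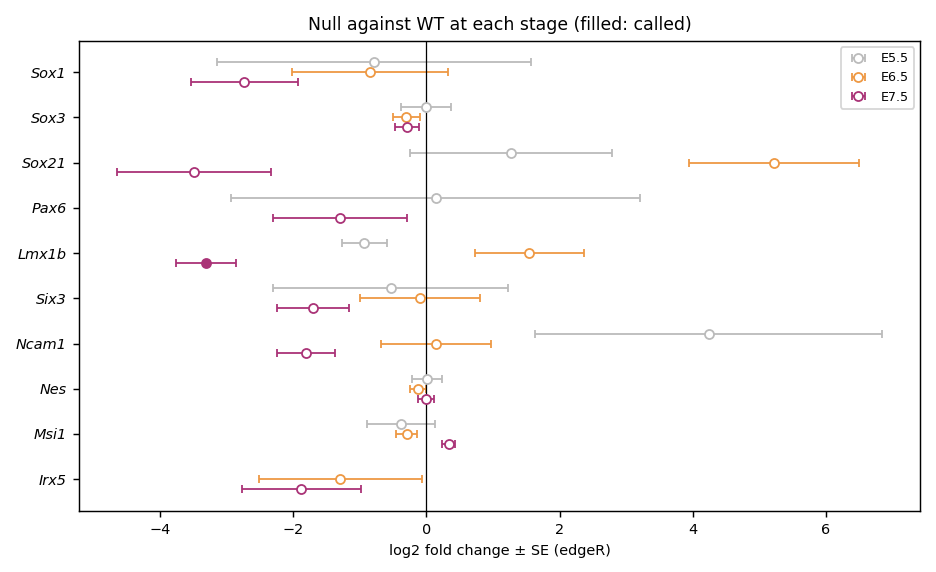
Log2 fold change of null against WT (horizontal axis, edgeR estimate with SE bars) of the 10 genes at E5.5 (grey, 4 against 2 libraries), E6.5 (orange, 8 against 9) and E7.5 (purple, 3 against 9). The filled point was called. *Lmx1b* at E7.5 (-3.31) is the only filled point, the E6.5 estimate of *Sox21* lies at 5.22, and no point is drawn for *Irx5* at E5.5 and *Pax6* at E6.5, which did not pass the filter on low counts.

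At E5.5, 0 of the 9 genes that passed the filter were called, as were 0% of all genes tested, and DESeq2 called 0 of the 9. An unadjusted p under 0.05 was found for 1 of the 9 and for 467 of all 18690. *Irx5*, at 0 in all 6 libraries, was not tested. *Lmx1b* was 6.44 to 9.32 CPM in the 4 null libraries, below the 14.2 and 15.8 CPM of the WT pair (log2 fold change -0.93, SE 0.33), as 11.5% of all genes tested did not overlap in either direction. *Sox1* and *Pax6* were at 3 counts or fewer in 3 of the 4 null libraries.

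At E6.5, 0 of 9 were called, as were 0% of all genes tested. An unadjusted p under 0.05 was found for 1 of the 9 and for 1414 of all 17095. DESeq2 called 1, *Sox21*, and 0.164% of all genes tested. *Pax6* did not pass the filter. *Sox21* was 0.214 over 2.07 to 30.4 CPM in null and 0 to 0.605 in WT, a log2 fold change of 5.22 (SE 1.28). It was 3.58 without the libraries that stand apart and 2.88 among the libraries under 40000000 counts. In the deeper libraries *Sox21* was at 0 in all 3 WT and at 30.4, 5.25 and 0.759 CPM in the 3 null libraries. The extraembryonic ectoderm sum was 60.5 over 135 to 1596 CPM in null and 38.1 over 48.5 to 133 in WT. *Lmx1b* was 0 over 4.84 to 11.8 CPM in null against 0.694 over 0.969 to 7.2 in WT (log2 fold change 1.55, SE 0.82). Only 0.0585% of all genes tested, and none of the 10, did not overlap between E6.5 null and WT.

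Null epiblasts were also set against WT of the stage before. With E6.5 null set against E5.5 WT, *Nes* and *Msi1* were called higher, with log2 fold changes of 1.61 (SE 0.23) and 2.34 (SE 0.34), where 0.162% of all genes tested were called. Both calls were lost without E5.5 WT 1 or without E6.5 null 6, and 1 without E5.5 WT 2. With E7.5 null set against E6.5 WT, none of the 10 was called, with 2 at an unadjusted p under 0.05 and 0 by DESeq2, where 0.162% of all genes tested were called. *Irx5* in the 3 E7.5 null libraries (5.56, 8.29 and 31.4 CPM) was above all E6.5 WT libraries (at most 5.0), a log2 fold change of 2.99 (SE 1.12, adjusted p = 0.434, edgeR). *Msi1* was also above all of them (176 CPM and over against at most 170). For *Six3* the log2 fold change was 1.76 (SE 0.63, adjusted p = 0.373, edgeR), with 1 null library (3.15 CPM) within the E6.5 WT range. Groups did not overlap for 4.56% of all genes tested.

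Levels per kilobase of exon set *Sox3*, *Msi1* and *Nes* above the other genes from E6.5 on. In E7.5 WT the means were 29.7 CPM per kb for *Sox3*, 26.1 for *Msi1*, 21.1 for *Nes* and 18.9 for *Irx5*. They were followed by *Lmx1b* (6.18), *Ncam1* (3.91), *Six3* (3.34), *Sox21* (2.08), *Sox1* (1.78) and *Pax6* (0.164). Neighbours in this order were not always apart. *Sox3* exceeded *Msi1* in 6 of 9 libraries, *Nes* exceeded *Irx5* in 6 of 9, and *Sox21* exceeded *Sox1* in 6 of 9, while *Irx5* exceeded *Lmx1b* in 8 of 9 and *Lmx1b* exceeded *Ncam1* in 9 of 9. In E6.5 WT *Irx5* stood at 0.597 CPM per kb and *Lmx1b* at 0.387.

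The EpiSC lines show these genes in primed cells kept in culture. The tables were made separately, and so were the libraries, by different kits. Epiblast libraries came from a SMARTer low-input kit, and EpiSC libraries from Ribo-Zero rRNA removal and a NEBNext kit. Levels in EpiSC and epiblast libraries are therefore set side by side without a test. *Nes* was the highest of the 10 per kilobase in both genotypes, with means of 45.1 CPM per kb in WT and 33.7 in null. *Ncam1* was 42.8 and 57.5 CPM in WT and 45.1 and 57.6 in null, and *Msi1* 105 to 123 CPM in the 4 lines. In contrast *Irx5* (3.06 to 5.18 CPM), *Lmx1b* (1.36 to 1.72) and *Six3* (0.0630 to 0.431) were low in all 4 lines, below the 8 E7.5 WT epiblasts other than E7.5 WT 3.

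Between null and WT lines none of the 10 was called, with 3 at an unadjusted p under 0.05 and 0 by DESeq2, and 0.106% of all genes tested were called. *Nes* was 216 and 217 CPM in the null lines and 278 and 301 in the WT lines (log2 fold change -0.44, SE 0.07, adjusted p = 0.12, edgeR). *Six3* was 0.0630 and 0.131 CPM in null and 0.420 and 0.431 in WT (log2 fold change -2.10, SE 0.60, adjusted p = 0.321, edgeR). *Sox1* was 6.30 and 6.09 CPM in null and 8.02 and 14.6 in WT (log2 fold change -0.88, SE 0.28, adjusted p = 0.401, edgeR). Without WT line 8 it was -1.24 with an adjusted p of 0.0267 (edgeR, with the remaining WT line assumed to vary like the null lines). *Sox21* was 0.883 and 1.44 CPM in null and 1.58 and 2.37 in WT (log2 fold change -0.78, SE 0.38, adjusted p = 0.637, edgeR). In all, 6 of the 10 did not overlap between genotypes, 4 lower and 2 higher in null, as 40.2% of all genes tested did with 2 libraries a group. Each line is a single derivation, so line and genotype share the same 2 against 2 samples.

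Further neural lists were read for the WT step from E6.5 to E7.5, in which 8.83% of all genes tested were called and the median log2 fold change over all of them, called or not, was 0.01. Among paralogs of the 10 genes, the Iroquois genes *Irx1*, *Irx2* and *Irx3* rose. *Irx3* went from a mean of 2.49 to 122 CPM (log2 fold change 5.57, adjusted p = 1.11e-04, edgeR), *Irx1* from 1.74 to 51.7 and *Irx2* from 1.5 to 8.80. The following paralogs were not called. *Sox2*, the SOXB1 partner of *Sox1* and *Sox3*, was 48.2 and 51.7 CPM, and *Msi2* 95.9 and 106, while *Six4* was 46.1 and 39.5, *Six5* 6.79 and 14.0, *Six2* 1.05 and 3.0 and *Sox14* 0.60 and 0.887 CPM.

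Midbrain, hindbrain and posterior neural genes included 16 genes, of which 7 passed the filter (median log2 fold change 3.68), 4 rose and 1 fell. *Nkx1-2*, a marker of the caudal epiblast, went from 2.16 to 123 CPM, *Gbx2*, a factor of the hindbrain, from 0.516 to 92.3 and the caudal factor *Cdx2*, also among the extraembryonic ectoderm markers, from 0.659 to 61.5. The others were *Pax2*, which rose, and *Fgf8*, which fell. Of 13 anterior neural genes 7 passed (median 1.18), with *Lhx5*, a LIM homeobox factor of the forebrain, rising from 0.335 to 9.04 CPM and *Otx2*, also an epiblast marker, falling from 176 to 69.7. Of 20 genes of the neural plate and early progenitors 15 passed (median 1.36), 6 rose and 1, *Pou3f1*, fell. The 3 with the smallest p were *Vim*, which encodes the filament protein vimentin (25.9 to 150 CPM), *Hes3*, a HES repressor of the neural plate at 0 counts in every E6.5 WT library and at 6.84 CPM at E7.5, and the growth factor gene *Ptn* (5.08 to 24.2).

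Of 14 genes of later neurogenesis 8 passed (median 0.57) and none rose, while 1 fell, *Elavl3*, which encodes a neuronal RNA-binding protein, from 39.3 to 20.5 CPM. Of 11 genes of the surface ectoderm and neural plate border 9 passed (median 2.90), 6 rose and 1 fell. *Tfap2a*, a factor of the surface ectoderm and neural crest, went from 1.83 to 25.3 CPM, *Dlx5*, of the anterior border, from 0.161 to 11.9, and *Grhl2*, of the non-neural ectoderm, fell from 73.9 to 38.2. In the null step from E6.5 to E7.5 no gene of these 6 lists was called, with 0.103% of all genes tested called. Of the 5 lists beside the paralogs, with E7.5 null set against E7.5 WT, *Hoxa2*, *Lhx5*, *Hes3* and *Dlx3* were called lower, 1 each from the midbrain, hindbrain and posterior, the anterior, the neural plate and the border list, beside 1.17% of all genes tested. Mean levels in E7.5 null were 1.26 CPM for *Lhx5* and 0 for *Hes3*. Genes named for lying outside the rule on named genes were chosen after their values were seen.

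The genes whose pattern was most like that of *Sox1* over the 35 epiblast libraries, by Pearson's r of log2 CPM among 19456 genes, were *Hoxd1* (r = 0.84), *Col13a1* (0.84), *Fgf3* (0.83), *Uqcrh* (0.82) and *Eya1* (0.81). *Hoxd1* had means of 0.267 CPM in E6.5 WT, 4.11 in E7.5 WT and 1.58 in E7.5 null, and *Eya1* 0.848, 12.5 and 3.08. For *Nes* they were *Zfp334* (0.94), *Igf1r* (0.93), *Ccdc8* (0.92), *Inppl1* (0.92) and *Clip3* (0.92). *Igf1r*, which encodes the receptor of insulin-like growth factor, had means of 54.3 CPM in E5.5 WT, 177 in E6.5 WT and 187 in E7.5 WT. Within the 29 libraries of E6.5 and E7.5 the r of these 5 with *Nes* was 0.51 to 0.68. These libraries share stage and genotype, and the values are a description.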

How the data were processed

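Bulk RNA was sequenced from 35 single epiblasts and 4 EpiSC lines. The authors aligned reads to GRCm38 (mm10) with HISAT2 after trimming with Trim Galore, assigned them to genes with StringTie and deposited raw gene counts, one table for epiblasts and one for EpiSCs. The annotation version and strand setting are not given in the sources used here. Positions and exon lengths were taken from GENCODE M21.

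Counts were tested with edgeR 4.0.16 (R 4.3.3, TMM, filterByExpr with a minimum count of 10 and total of 15, robust quasi-likelihood, two-sided). Each comparison used the libraries of its 2 groups, and the step compared between genotypes the 29 of E6.5 and E7.5. p-values were adjusted over all genes tested. The median log2 fold change over all genes was within 0.0962 of 0 in every comparison. Alternatives used DESeq2 1.42.0, limma 3.58.1 (voom with quality weights), other filters and scalings, a replicate block, Y genes as a covariate and each library left out. No 2 libraries were duplicates (highest correlation 0.955 among epiblasts and 0.981 among EpiSCs).

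The 10 genes and all lists were chosen with earlier results of these data known. Named genes are *Stat3*, the 10, *Pou5f1*, from each list up to 3 called genes with the smallest p at E7.5 WT against E6.5 WT, paralogs tested there (1 item is not reported here), and the 5 genes closest in pattern to *Sox1* and to *Nes*. Markers and overlapping genes named beside a result were chosen after their values were seen.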

Additional observations from a re-analysis of the deposited data

Results flagged for a closer look

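In 40 sets of values, 1 per gene and epiblast group of 4 to 9 libraries, 8 held a library far from the others by Dixon's criterion at 95%. Chance marks about 1 set in 20 where values are normally distributed, which levels near 0 are not, so the number was not set against chance. The highest value was far above the next in 6. These were *Sox1* in E5.5 null 4 (1.89 CPM, next 0.0992), E6.5 null 7 (3.33 CPM, next 1.23) and E6.5 WT 3 (4.03 CPM, next 1.84), *Pax6* in E5.5 null 4 (2.48 CPM, the other 3 at 0), *Sox21* in E6.5 null 1 (30.4 CPM, next 5.25) and *Lmx1b* in E6.5 WT 3 (7.2 CPM, next 2.35). The lowest value was far below the next in *Irx5* of E7.5 WT 3 (1.42 CPM, next 56.2) and *Msi1* of E6.5 WT 3 (63.7 CPM, next 143).

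E6.5 WT 3 accounts for 3 of the 8 and had summed visceral endoderm markers of 5873 CPM, where the median of its group was 215. E6.5 null 1 had summed extraembryonic ectoderm markers of 1596 CPM, where the median of its group was 135. Their part in these values was not tested.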

How the results depend on the processing

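In WT from E6.5 to E7.5 the number of the 10 genes called stayed at 6 or 7 under all alternatives, the borderline gene being *Pax6*. From E5.5 to E6.5 in WT 4 were called, 2 to 5 with a library left out, 1 with the replicate block and 2 with the Y genes as covariate. In null from E5.5 to E6.5 2 were called, 3 with DESeq2, 3 with voom, 2 or 3 with a library left out and 0 with the replicate block. In null from E6.5 to E7.5, and in E7.5 null against E6.5 WT, voom with quality weights called 1 each (*Irx5* and *Six3*). For E6.5 null against WT DESeq2 called 1. For E7.5 null against WT the count of 1 became 5 with DESeq2, 3 with voom, 2 at a mean count of at least 50, 0 with the replicate block, 6 without the 4 libraries that stand apart, with or without E6.5 null 3, alternatives chosen after seeing the data, and 0 to 6 with a library left out. For E6.5 null against E5.5 WT the 2 calls became 0 with the replicate block and with the Y genes as covariate, and 0 to 2 with a library left out. For the EpiSC lines 0 or 1 was called with a line left out. For the step compared between genotypes 2 were called with DESeq2, at a mean count of at least 50, with voom and without the 4 libraries (with or without E6.5 null 3), and 1 with the Y genes as covariate. The count for this step was 0 to 2 with an E7.5 null library, E6.5 WT 3 or E7.5 WT 3 left out. Other libraries were not left out singly there. The cause of these changes was not tested. The share of all genes called for E7.5 null against WT went from 1.17% to 5.03% with DESeq2, 6.05% with voom and 5.68% without the 4 libraries. The number of all genes called moved too. It was 1070 for E6.5 against E5.5 WT (101 with the replicate block, 2156 with voom), 1518 for E7.5 against E6.5 WT (2805 with no filter on low counts), 363 for E6.5 against E5.5 null (2 with the block, 1906 with voom) and 20 for E7.5 against E6.5 null (0 and 434). For null against WT it was 0 at E5.5 (14 with DESeq2), 0 at E6.5 (87 with voom) and 231 at E7.5 (0 with the block, 1190 with voom). It was 33 for E6.5 null against E5.5 WT (4 with the Y genes as covariate, 1072 with voom), 32 for E7.5 null against E6.5 WT (19 and 318), 22 for the EpiSC lines (205 with DESeq2) and 98 for the step compared between genotypes (22 with the block, 1497 with voom). Counts near 0 limit *Pax6* at all stages, *Irx5* and *Sox1* at E5.5 and *Sox21* in E6.5 WT, and 2 or 3 libraries a group limit E5.5 WT, E7.5 null and the EpiSC lines.

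The log2 fold change of *Msi1* between E6.5 and E7.5 in WT (-0.02) was 0.0109 with the replicate block and 0.00345 to 0.0290 without E6.5 WT 4, E6.5 WT 7 or E7.5 WT 7, in a range of -0.112 to 0.0290 with a library left out. That of *Sox3* (-0.30) was 0.0203 with voom. The replicate numbers name single embryos. Same-numbered libraries deviated together with correlations of -0.188 to 0.300, and in no comparison were all pairs over 0.1, so the block was not taken as a pairing. No paired analysis was possible for the EpiSC lines because their labels share no number.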
